A study of Mus musculus with 4 samples.

Results

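The ankyrin-repeat proteins Ankrd1, Ankrd2 and Ankrd23, the LIM-domain proteins Csrp3 (muscle LIM protein, MLP) and Fhl1, the Xin-repeat proteins Xirp1 and Xirp2, their partners Nrap and Flnc, and desmin (Des) make up a group of 10 genes of the muscle's response to mechanical load. The 10 were taken by name, with earlier results of these data known. Each was found as 1 row among 32868 gene names, none has a further row marked as a copy, and all 10 passed the filter of 0.5 RPKM in at least 2 libraries that left 10690 genes for testing. The unit of the values is not named and was read as RPKM, which corrects a gene's reads for its length and for the sequencing depth. Levels can thus be compared between genes approximately. Between libraries, RPKM alone does not settle small differences, so the libraries were also brought to a common scale before testing.

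RNA was measured in the tibialis anterior, a muscle of the shin made mostly of fast fibres, from C57BL/6 mice at postnatal day 21. The Nf1-KO group (Nf1flox/flox/Myf5+) and the Het group (Nf1flox/+/Myf5+) had 2 libraries each. Both groups carry Myf5+, which in such a cross stands for a Cre driver that acts in muscle precursors, and the Het group carries 1 floxed Nf1 allele, so there is no group with intact Nf1. The labels do not say whether the 2 libraries of a group came from separate animals, so the p-values measure the spread between these libraries, which may be technical. Nf1, the gene that encodes the Ras regulator neurofibromin, was 1.09 and 1.01 RPKM in Het and 0.89 and 0.85 RPKM in Nf1-KO (log2 fold change -0.18, limma adjusted p 0.041). At this low level the pseudocount shortens the value: Nf1 was -0.33 with a pseudocount of 0.1 (limma adjusted p 0.045), and the authors' deposited table gave -0.38 with an adjusted p of 0.0026. The limma call was lost without any 1 of the 4 libraries, with log2 fold changes from -0.21 to -0.15, with no filter (-0.19, adjusted p 0.074) and with values as deposited (-0.13, adjusted p 0.094). The value is of whole muscle, which also holds cells outside the Myf5 lineage.

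Muscle fibres sense load where the thin filaments are anchored. Ankrd1, Ankrd2 and Ankrd23 bind the elastic part of the giant protein titin and can move to the nucleus, and Ankrd1 and Csrp3 are widely used as markers of stretch or overload. Csrp3 sits at the Z-disc, the plate that anchors thin filaments, and Fhl1 binds titin and other sarcomere proteins. Xirp1 and Xirp2 bind actin and filamin C at muscle attachment sites and at damaged stretches of the fibre, Nrap takes part in building myofibrils and in anchoring their ends, filamin C (Flnc) crosslinks actin at the Z-disc and the membrane, and desmin filaments tie neighbouring Z-discs to each other.

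The promoter windows of 4 members are shown because these genes include the largest rise (Ankrd1), the largest fall (Csrp3), and the members with a match to a serum response element (the CArG box, in Fhl1) or to the MEF2 motif (Xirp2). The sequences are those of RefSeq on GRCm38.p6, written 5′ to 3′ along the gene's own strand. Each runs from 250 bases before to 50 bases after a RefSeq start of the gene. For Fhl1 and Ankrd1 that start lies inside the gene's GENCODE M21 span, not at its outer end. The spans are 56731787 to 56793346 for Fhl1 and 36111961 to 36120099 for Ankrd1. Both printed windows lie wholly within these spans. Capitals mark each match to the MCAT element (CATTCC or its reverse complement GGAATG, the site of TEAD factors), the CArG box and the MEF2 motif.
Ankrd1, chr19:36119795-36120094, minus strand: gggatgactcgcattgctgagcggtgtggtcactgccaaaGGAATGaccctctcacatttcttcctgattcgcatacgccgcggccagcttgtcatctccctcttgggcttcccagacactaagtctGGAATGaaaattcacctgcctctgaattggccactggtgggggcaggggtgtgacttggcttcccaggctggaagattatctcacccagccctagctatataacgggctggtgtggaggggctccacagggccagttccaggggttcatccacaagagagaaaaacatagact
Csrp3, chr7:48848002-48848301, minus strand: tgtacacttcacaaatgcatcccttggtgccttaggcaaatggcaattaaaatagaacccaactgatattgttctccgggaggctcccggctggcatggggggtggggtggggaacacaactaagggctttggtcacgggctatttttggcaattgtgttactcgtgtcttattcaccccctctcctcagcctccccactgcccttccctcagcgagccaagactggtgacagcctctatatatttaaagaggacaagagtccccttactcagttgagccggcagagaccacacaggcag
Xirp2, chr2:67445752-67446051, plus strand: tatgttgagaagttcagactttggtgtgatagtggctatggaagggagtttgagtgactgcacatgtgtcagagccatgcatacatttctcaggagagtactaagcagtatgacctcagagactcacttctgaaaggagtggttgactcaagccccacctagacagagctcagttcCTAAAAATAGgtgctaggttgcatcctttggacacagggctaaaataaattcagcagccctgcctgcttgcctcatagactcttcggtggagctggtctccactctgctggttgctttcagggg
Fhl1, chrX:56779433-56779732, plus strand: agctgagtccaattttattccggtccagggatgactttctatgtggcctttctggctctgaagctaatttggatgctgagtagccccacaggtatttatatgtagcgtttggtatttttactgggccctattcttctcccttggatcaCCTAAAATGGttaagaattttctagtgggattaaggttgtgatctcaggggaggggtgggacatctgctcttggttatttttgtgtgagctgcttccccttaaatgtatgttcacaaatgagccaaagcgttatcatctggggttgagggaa

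A promoter was found for 9 of the 10 members, and Xirp1 is named only. Where a gene had 2 windows, the one with the outermost start was used. The MCAT element, searched on both strands, was present in 3 of the 9 windows (Ankrd1, Ankrd23 and Flnc), against 14.7% of all 32851 promoter windows. The Ankrd23 match begins 36 bases after the start, and the Flnc match begins 1 base before it. Ankrd1 held 2 matches, whose first bases lie 210 and 123 bases before the RefSeq start, within the annotated gene. The CArG box was found in 1 of 9 member windows against 1.63% of all windows, and the MEF2 motif in 1 of 9 against 3.19%. The CArG box match is that of Fhl1, at the start inside the gene. The Csrp3 window held none of these 3 motifs. E-boxes (CANNTG, the site of myogenic factors) were present in 7 of 9 member windows and in 72.3% of all windows, with 5 in Csrp3, 3 each in Ankrd2, Nrap and Fhl1, 2 each in Xirp2 and Des, and 1 in Ankrd1. A match describes the letters only.

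Of the 10 genes, 3 were higher in Nf1-KO (Ankrd1, Xirp1 and Des) and 6 were lower (Csrp3, Xirp2, Flnc, Fhl1, Ankrd23 and Ankrd2), while Nrap did not pass the limma adjusted p threshold of 0.05. The background is high: 50.2% of all tested genes passed, 24.9% higher and 25.4% lower, and among the 4826 genes with a mean of at least 5 RPKM, where 9 of the members lie, 63.8% did. With values not scaled between libraries, 52.8% of the tested genes passed, 35.2% higher (3760 genes) and 17.6% lower (1883), against 2658 and 2713 genes with scaling, and the median log2 fold change of all tested genes was 0.07. The count of 9 called members is read against that background, and the sizes of the changes are given beside all tested genes. No background of sizes was taken for genes of at least 5 RPKM, and changes of low genes are understated on this scale. The members were also chosen with earlier results of these data known, so their sizes are a description only. An absolute log2 fold change over 0.5 was seen in 4 of 10 members (Csrp3, Ankrd1, Xirp2 and Flnc), against 9.75% of all tested genes called with such a change. Csrp3 exceeded 1, against 1.98% of all tested genes called with such a change. Ankrd1, at 0.96, also exceeded 1 with a pseudocount of 0.1 (1.23), with values as deposited (1.04), without Het replicate 1 (1.04) and without Nf1-KO replicate 1 (1.01). The median absolute log2 fold change was 0.422 over the members and 0.156 over all tested genes, and the signed medians were -0.16 and 0. With scaled values the 2 groups did not overlap for any of the 10 genes, as for 76.3% of all tested genes. With values as deposited this held for 9 of 10, all but Ankrd2, and for 77.3% of all tested genes.

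**Figure D1:**
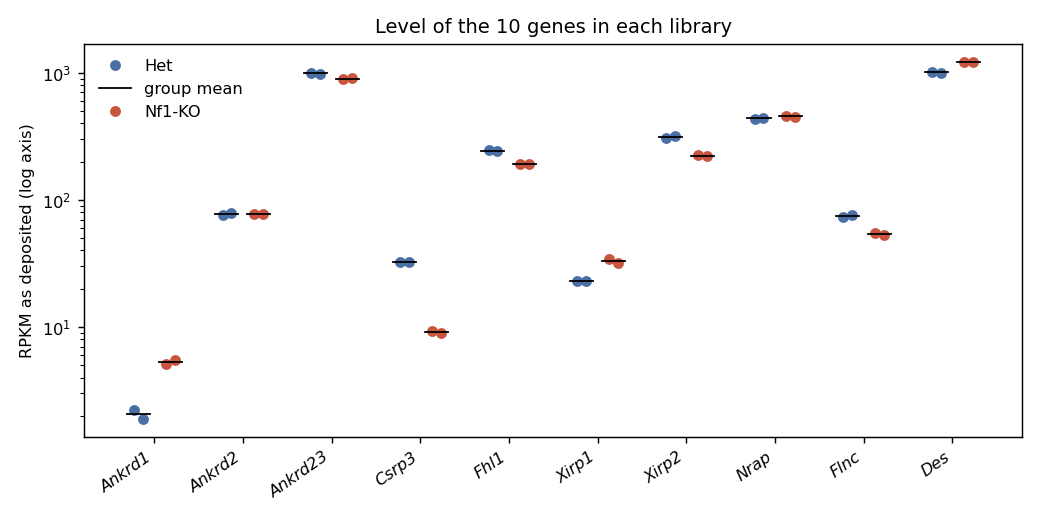
RPKM as deposited (log axis) of the 10 genes in each of the 4 libraries, as points (blue Het, red Nf1-KO), with a black line at each group's mean. The levels run from 1.89 RPKM (Ankrd1) to 1219.42 RPKM (Des), and the 2 libraries of a group lie close together beside the distance between groups for Csrp3 and Ankrd1.

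The members span a wide range of levels. Desmin and Ankrd23 were the most abundant, at ranks 36 and 43 of all gene names by mean RPKM, followed by Nrap (rank 90), Xirp2 (157) and Fhl1 (197). Ankrd1 was the least abundant, at rank 5692. Together the 10 genes summed to 3197.7 and 3199.5 RPKM in Het and 3172.4 and 3151.0 RPKM in Nf1-KO, a total that differed little while the shares within it differed more. The share of desmin in that sum was 31.5% and 31.4% in Het and 38.4% and 38.3% in Nf1-KO. For Ankrd23 it was 31.1% and 30.7% against 28.2% and 28.7%, and for Csrp3 1.01% in each Het library against 0.295% and 0.285%.

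Among the ankyrin-repeat genes, Ankrd1 and Ankrd23 moved in opposite directions. Ankrd1 (cardiac ankyrin repeat protein; chromosome 19, 36111961 to 36120099, GRCm38) was 2.22 and 1.89 RPKM in Het and 5.07 and 5.45 RPKM in Nf1-KO. Both Nf1-KO libraries lay above both Het libraries, and the mean of the scaled values was 2.41 times that of Het. Its log2 fold change was 0.96 (SE 0.0687, limma adjusted p 9.1e-05). Because the level is low, the pseudocount shortens this value: it was 1.23 with a pseudocount of 0.1, and the authors' deposited table gave 1.26 (SE 0.173), from a mean normalized count of 301.3. The spread between Het replicates was the widest of the members, with a coefficient of variation of 11.4%. The median was 2.03% over genes of at least 5 RPKM, a set of higher levels that does not hold Ankrd1.

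Ankrd23 (diabetes-related ankyrin repeat protein; chromosome 1, 36530188 to 36536883) was 994.36 and 982.7 RPKM in Het and 895.56 and 904.04 RPKM in Nf1-KO. The groups did not overlap and the fall was small, with a log2 fold change of -0.23 (SE 0.0154, limma adjusted p 7.1e-05). Ankrd23 was thus the most abundant of the ankyrin-repeat members in every library. Ankrd1 stood at 0.223% and 0.192% of the Ankrd23 RPKM in Het and at 0.566% and 0.603% in Nf1-KO. That ratio, which does not depend on scaling, was 2.81 times as high in Nf1-KO. Of the Ankrd23 stretches of 50 bases, 75.0% also occur in other annotated genes, mainly Gm42417. The Ankrd23 level may therefore include reads of such genes.

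Ankrd2 (known to be enriched in slow muscle; chromosome 19, 42036000 to 42045110) was 76.07 and 78.14 RPKM in Het and 77.26 and 77.03 RPKM in Nf1-KO as deposited. Those values overlap, and their group means were both 77.1 RPKM. After scaling, the log2 fold change was -0.09 (SE 0.0237, limma adjusted p 0.019), a call that was lost with values as deposited (0.00086, adjusted p 0.98), without a variance trend (adjusted p 0.098), and without Het replicate 2, Nf1-KO replicate 1 or Nf1-KO replicate 2 (-0.07, -0.10 and -0.09, adjusted p 0.089, 0.059 and 0.072). The authors' deposited table gave -0.11 with an adjusted p of 0.067, over its threshold. Its direction therefore rests on the scaling between libraries, and the 95% interval of the scaled difference ran from -0.15 to -0.03.

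The LIM-domain genes both fell. Csrp3, the muscle LIM protein that is known to be more abundant in slow than in fast fibres (chromosome 7, 48830398 to 48848033), was 32.43 and 32.29 RPKM in Het and 9.35 and 8.98 RPKM in Nf1-KO. The groups were far apart beside the replicate spread, with an SD of 0.099 RPKM in Het and 0.262 RPKM in Nf1-KO, and the mean of the scaled values in Nf1-KO was 0.266 of that in Het. The log2 fold change was -1.80 (SE 0.033, limma adjusted p 5.1e-07), and 0.337% of all tested genes had a larger absolute change. The authors' deposited table gave -1.93 (SE 0.0969), from a mean normalized count of 978.8.

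Fhl1, a LIM-only protein abundant in skeletal muscle (chromosome X, 56731787 to 56793346), was 245.82 and 242.75 RPKM in Het and 193.06 and 192.83 RPKM in Nf1-KO. It fell with no overlap between groups, by 0.43 on the log2 scale (SE 0.0178, limma adjusted p 9.5e-06). The fall of Csrp3 was the larger of the pair: Csrp3 was 13.2% and 13.3% of Fhl1 in Het and 4.84% and 4.66% in Nf1-KO. Fhl1 has 10 annotated transcripts in GENCODE M21, and the gene-level value does not separate them.

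For Csrp3, the genes of at least 5 RPKM with the nearest profile over the 4 libraries (Euclidean distance of centred log2 values) were Pfkfb1, Pvalb and Sbk2, at distances of 0.076, 0.096 and 0.121, where the median over 4826 genes was 1.8. Pvalb, the calcium buffer of fast fibres, was 4668.54 and 4569.13 RPKM in Het and 1484.17 and 1502.19 RPKM in Nf1-KO. Pfkfb1, an enzyme that makes and removes an activator of glycolysis, was 51.38 and 52.36 against 14.52 and 14.91 RPKM. With 4 libraries in 2 groups, likeness of profile mostly reflects a like fold change.

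**Figure D2:**
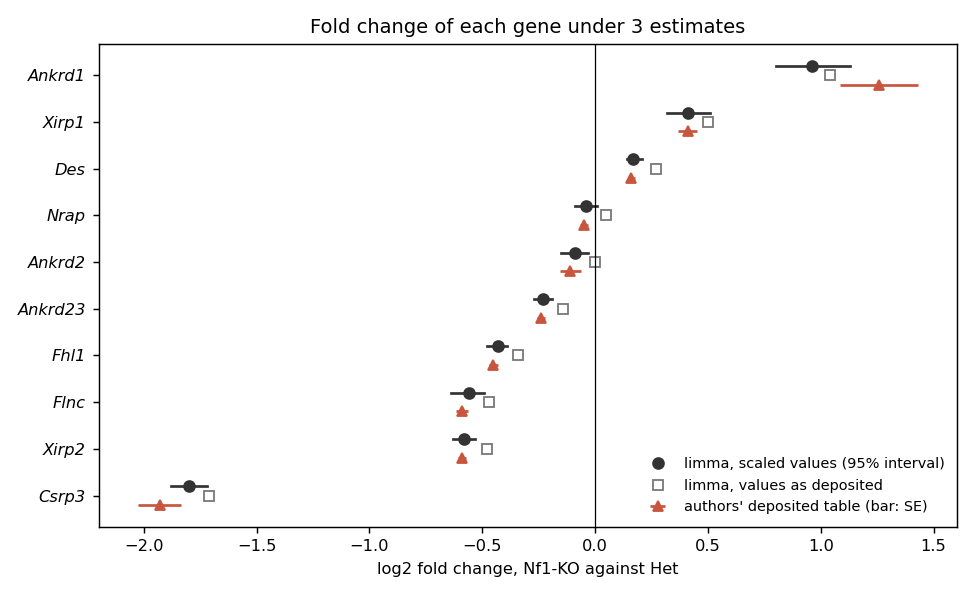
Log2 fold change of each gene in Nf1-KO against Het from limma on scaled values (black circles, bars the 95% interval), from limma on values as deposited (open squares) and from the authors' deposited table (red triangles, bars 1 SE). Csrp3 stands apart at -1.80 and Ankrd1 at 0.96, while Ankrd2 and Nrap lie at or across 0 depending on the estimate.

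The Xin-repeat genes diverged. Xirp1 (Xin; chromosome 9, 120013755 to 120023598), which is known to accumulate in damaged fibres, was 22.79 and 23.13 RPKM in Het and 34.11 and 31.79 RPKM in Nf1-KO. Both Nf1-KO libraries were above both Het libraries, and its log2 fold change was 0.41 (SE 0.0392, limma adjusted p 0.00032). Xirp2 (myomaxin; chromosome 2, 67446002 to 67526614) was 308.71 and 316.6 RPKM in Het and 224.4 and 222.34 RPKM in Nf1-KO. It fell by 0.58 on the log2 scale (SE 0.0205, limma adjusted p 5.1e-06), again with no overlap. Xirp1 was 7.38% and 7.31% of Xirp2 in the Het libraries and 15.2% and 14.3% in the Nf1-KO libraries, a ratio 2.01 times as high and free of scaling. Xirp2 remained the more abundant of the 2 in each library.

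Filamin C and Nrap, which bind Xin proteins or lie with them at the fibre ends, were unlike each other. Flnc (chromosome 6, 29433256 to 29461883) was 73.51 and 75.79 RPKM in Het and 54.64 and 52.47 RPKM in Nf1-KO. It fell by 0.56 on the log2 scale (SE 0.0303, limma adjusted p 2.9e-05), close to the change of Xirp2. Nrap (chromosome 19, 56320035 to 56390037) was 433.4 and 441.97 RPKM in Het and 459.48 and 449.87 RPKM in Nf1-KO as deposited, where the Nf1-KO libraries were the higher ones. Scaling turned the order round, with a log2 fold change of -0.04 (95% interval -0.09 to 0.01, limma adjusted p 0.15) against 0.05 with values as deposited (adjusted p 0.057). The authors' deposited table gave -0.05 with an adjusted p of 0.019, a call on a difference of the same size. Relative to Nrap within each library, Xirp2 was 71.2% and 71.6% in Het and 48.8% and 49.4% in Nf1-KO, and Flnc was 17.0% and 17.1% against 11.9% and 11.7%.

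Desmin (chromosome 1, 75360329 to 75368579), the intermediate filament of muscle, was 1008.41 and 1004.28 RPKM in Het and 1219.42 and 1206.19 RPKM in Nf1-KO. It rose with no overlap between groups, and the rise was modest, with a log2 fold change of 0.17 (SE 0.0152, limma adjusted p 0.00021). Csrp3 per desmin was 3.22% in each Het library and 0.767% and 0.744% in the Nf1-KO libraries, and Fhl1 per desmin was 24.4% and 24.2% against 15.8% and 16.0%.

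**Figure D3:**
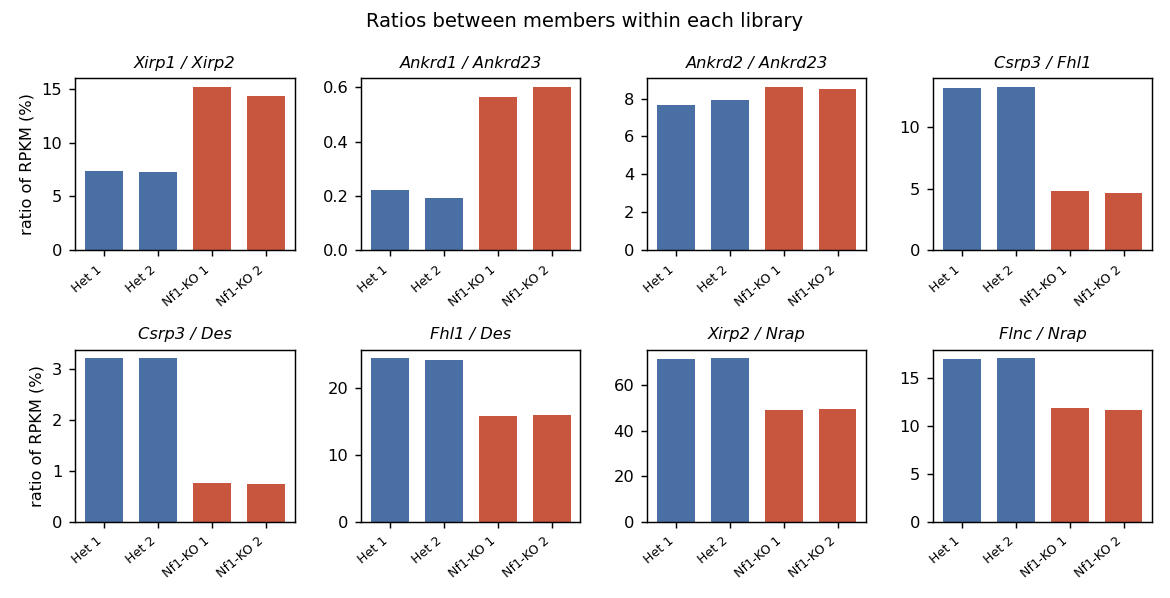
RPKM of 1 member as a percent of another in the same library (bars from 0; blue Het, red Nf1-KO), for 8 pairs. These ratios do not depend on scaling between libraries: Xirp1 per Xirp2 was 7.31% to 7.38% in Het and 14.3% to 15.2% in Nf1-KO, and Csrp3 per desmin was 3.22% in Het and 0.744% and 0.767% in Nf1-KO.

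The 9 members called here and the 9 called in the authors' deposited table at an adjusted p under 0.05, where 31.6% of its rows pass, differ in 1 gene each: Ankrd2 was called here only and Nrap in that table only. Both estimates come from the same 4 libraries, and all 10 signs were the same in both. Mean normalized counts in the authors' deposited table were between 301.3 for Ankrd1 and 160867 for Des, so counting noise is largest for Ankrd1. The gene length implied by the ratio of that count to the RPKM was 0.861 (Ankrd1) to 1.28 (Fhl1) times the longest coding transcript in GENCODE M21, so levels between members carry an uncertainty of about that size. Sequence shared with other genes is limited for most members. No stretch of 50 bases in the transcripts of Ankrd1, Ankrd2, Csrp3, Fhl1, Xirp1 or Flnc occurs in a transcript of another annotated gene. The shares were 1.01% for Xirp2, 4.61% for Des and 4.86% for Nrap, each with genes that overlap it on the opposite strand. For Ankrd23 the share was 75.0%, mainly with Gm42417, an annotated gene that spans the same exons on the same strand. Whether the counting used strand is not given in the sources used here, and strand would not separate Ankrd23 from Gm42417. Of these partners, Habp2 was at a mean of 0.005 RPKM and Gm15179 was listed at 0, while Gm42417 has no value here.

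Genes that work with the members were read from 6 lists, which hold 86 names, of which 76 could be tested. Of these 76, 55 were called, 27 higher and 28 lower, where 50.2% of all tested genes and 63.8% of those of at least 5 RPKM were called. With values as deposited 56 were called, 33 higher and 23 lower. In each list some genes were higher and others lower, and the list medians lay between -0.09 and 0.08, where the median of all tested genes was 0. The titin partners of the ankyrin-repeat proteins had 6 of 11 tested genes called, 2 higher and 4 lower. Titin itself (Ttn) was 122.91 and 129.34 RPKM in Het and 96.64 and 76.21 RPKM in Nf1-KO, and it fell by 0.64 on the log2 scale (limma adjusted p 0.0027). Tcap, which caps titin at the Z-disc, rose from 2129 ± 1.77 to 3251 ± 24.2 RPKM (SD, n = 2; log2 fold change 0.52), and Smpx, a small muscle protein, from 143 ± 5.76 to 194 ± 0.912 RPKM (log2 fold change 0.35).

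In the desmin network 4 of 7 tested genes were called, 1 higher and 3 lower. Synemin (Synm), which forms filaments with desmin, fell from 148 ± 2.62 to 86.1 ± 1.85 RPKM (SD, n = 2; log2 fold change -0.87, limma adjusted p 2.7e-06), while desmin rose. Nestin (Nes) fell by 0.34, and the desmin chaperone Cryab rose by 0.32 on the log2 scale.

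Of the filamin C and Xin partners, 10 of 12 tested genes were called, 6 higher and 4 lower. Ky, a partner of filamin C, fell from 53.1 ± 0.311 to 30.4 ± 0.509 RPKM (SD, n = 2; log2 fold change -0.88), and Igfn1 and Hspb8 fell by 0.54 and 0.44 on the log2 scale. Relatives of the LIM-domain members had 11 of 12 tested genes called, 6 higher and 5 lower. Pdlim3, which binds alpha-actinin at the Z-disc, and Pdlim7 fell by 0.84 and 0.80 on the log2 scale, and Csrp2, a relative of Csrp3, rose from 1.27 ± 0.311 to 2.43 ± 0.354 RPKM (log2 fold change 0.54, limma adjusted p 0.0089). With no filter on low values the call of Csrp2 was lost (0.53, limma adjusted p 0.075).

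Costamere genes, which tie the sarcomere to the membrane, had 13 of 17 tested genes called, 6 higher and 7 lower. Sorbs2 fell from 5.69 ± 0.0354 to 1.67 ± 0.0636 RPKM (SD, n = 2; log2 fold change -1.39), and vinculin (Vcl) fell by 0.52 on the log2 scale. Among genes of the YAP-TEAD and SRF-MRTF pathways, which read tension and actin state, 11 of 17 tested genes were called, 6 higher and 5 lower. Abra (STARS), an actin-binding activator of MRTF, rose from 80.6 ± 0.728 to 143 ± 1.17 RPKM (log2 fold change 0.73), Amotl2 rose by 0.99, and the MRTF gene Mkl1 fell by 1.22. Ctgf and Cyr61, textbook YAP targets beside Ankrd1 that were named after their values were seen, were 3.83 and 4.28 against 6.82 and 6.73 RPKM and 10.9 and 10.86 against 15.9 and 14.15 RPKM, with log2 fold changes of 0.54 and 0.34 (limma adjusted p 0.00044 and 0.003).

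**Figure D4:**
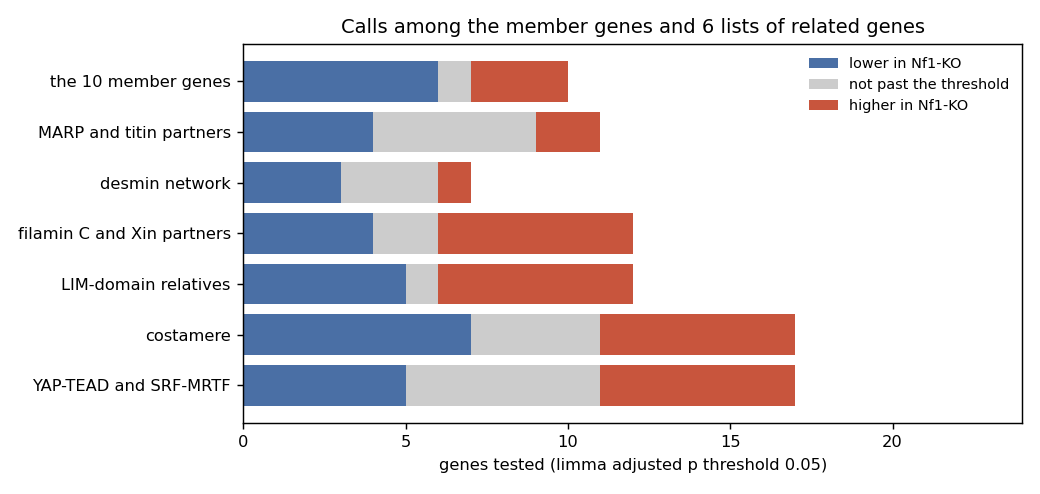
Number of tested genes lower (blue), not past the threshold (grey) and higher (red) in Nf1-KO, for the 10 member genes and 6 lists of related genes, at a limma adjusted p threshold of 0.05. Each list holds genes called in both directions, from 1 higher and 3 lower in the desmin network to 6 higher and 7 lower among costamere genes.

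Marker lists of the tissue and of other sources were read beside these results. In bulk muscle, fewer cells of a type and less RNA per cell cannot be told apart. All 6 skeletal muscle markers were abundant, with summed levels of 48346 RPKM in each Het library and 38520 to 38808 RPKM in Nf1-KO. Mb was higher and the other 5 were lower, among them Acta1, Myh4 and Pvalb. Of 6 heart muscle genes, relevant since Ankrd1 and Csrp3 are also heart genes, the 2 that could be tested, Tnnt2 and Myh6, were higher. Their list summed to 2.54 to 2.62 RPKM in Het and 7.14 to 7.73 RPKM in Nf1-KO. Most of that sum was Tnnt2, at 1.46 and 1.39 RPKM in Het and 5.23 and 4.75 RPKM in Nf1-KO. Nppb and Myl7 were listed at 0 in all 4 libraries. At levels too low to test, Nppa was 0.1 and 0.06 RPKM in Het and 0.18 and 0.24 RPKM in Nf1-KO. Tnni3 went the other way, at 0.07 and 0.08 RPKM in Het and 0.03 and 0.02 RPKM in Nf1-KO.

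Of 8 tendon and myotendinous junction genes, the sites where Xirp1, Xirp2 and Nrap are concentrated, 4 could be tested. Thbs4, Col22a1 and Scx were lower, with log2 fold changes of -1.06, -0.74 and -0.45, and Fmod was higher at 0.72. The list summed to 18.7 RPKM in each Het library and 14.1 to 14.6 RPKM in Nf1-KO. Of 10 genes of new or regenerating fibres, 7 were tested. Myog, Chrna1 and Myh3 were higher, with log2 fold changes of 1.44, 1.21 and 0.25, and Myh8 was lower at -0.51. Their sum was 101 to 108 RPKM in Het and 91.6 to 94.8 RPKM in Nf1-KO, most of it Myh8 (its most abundant row), and Myh3 lost its call without Nf1-KO replicate 2 (0.23, limma adjusted p 0.063). Of 6 smooth muscle genes, which matter because desmin is also made there, 5 were tested. Acta2, Mylk and Smtn were higher by 0.38, 0.30 and 0.19 on the log2 scale, Tagln was lower by 0.16, and the list summed to 49.5 to 50.5 RPKM in Het and 60.0 to 60.2 RPKM in Nf1-KO. Tagln lost its call with values as deposited (-0.08, limma adjusted p 0.10). The part of these sources in the members' differences was not tested.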

How the data were processed

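RNA of tibialis anterior muscle was measured in 4 libraries. Per the submitters' processing notes, STAR 2.4.2a, DESeq2 and build mm9 were used; the counting program, annotation and strand setting are not given in the sources used here. The authors deposited 1 value per row for 34682 rows and library. Its unit is not named and was read from the values as RPKM. A comparison table that the authors deposited has 13985 rows with, per the file headers, a mean signal (counts divided by size factors), a log2 fold change with its standard error, a test score, and p-values before and after adjustment. Its direction was read from the libraries' values. No counts per library were used, so depth per library is unknown and no counting intervals are given.

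Rows with a number as name (33) were left out, and of 1781 rows marked as copies only the most abundant row of a name was used. A gene was tested where 2 or more libraries reached 0.5 RPKM. Libraries were first brought to a common scale by a trimmed mean of their log ratios to the mean profile, without weights, after removing 30% of the ratios and 5% of the abundances from either tail; the factors were 0.969, 0.967, 1.03 and 1.03. The test was that of limma 3.58.1 (R 4.3.3), two-sided, on log2 of RPKM plus a pseudocount of 1, allowing the variance to follow the mean, with no covariate and Benjamini-Hochberg adjustment over the whole table. On this log2(value + pseudocount) scale the changes of low genes are understated. Means and SD are of RPKM as deposited, with n = 2 per group; an exact permutation test of 1 value in such a design cannot pass 0.05. Positions and transcripts are from GENCODE M21 (GRCm38), promoters from RefSeq; no position was taken from the mm9 files.

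The members and lists were chosen with earlier results of these data known. All members are named; of each related list the at most 3 called genes of at least 1 RPKM with the largest change are named, and others are marked as chosen after their values were seen. The result of 1 gene that this rule names is not reported here. The labels give no batch and no sex, so whether the groups match in sex is not known. Alternatives were the pseudocount, the filter, the scaling, the variance trend, the replicate number as a block, each library left out, and summed copies.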

Additional observations from a re-analysis of the deposited data

How the results depend on the processing

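Over 12 alternative settings, 882 of 907 values stayed on the same side of 0 and of the threshold or, for counts, within 1.5 times. Csrp3, Xirp2, Flnc, Fhl1, Ankrd23, Ankrd1, Xirp1 and Des kept their calls in all 12. Ankrd2 did not: with values as deposited it turned to 0.00086, it lost its call without a variance trend (-0.09), and without 1 library it ran from -0.11 to -0.07. Nrap turned to 0.05 with values as deposited. With these values the titin partners had 4 genes higher and 2 lower, and the desmin network 3 higher; the latter had 2 higher at 1 RPKM in every library and without a variance trend. The LIM-domain relatives had 3 higher with no filter. The cause was not tested.

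Same-numbered libraries showed no shared deviation (correlation -0.018 across genes). A single correlation over all genes cannot decide whether they were paired, which the labels do not say. Under a fit with replicate number as block, 5235 genes and 9 members were called, and Nf1 (-0.18) lost its call with an adjusted p of 0.056 from limma. The summed copies changed no member, since none has a copy. With 2 libraries per group, each call leans on the variance pooled over genes.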

Other observations

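Relatives of the LIM-domain members had the following values. Among LIM-only genes, Fhl3 was 144.26 and 142.46 RPKM in Het and 111.71 and 108.73 RPKM in Nf1-KO (log2 fold change -0.47, limma adjusted p 1.8e-05), a fall like that of Fhl1. Fhl2, known from heart muscle, was 0.34 and 0.23 RPKM in Het and 1.17 and 1.49 RPKM in Nf1-KO (log2 fold change 0.82, limma adjusted p 0.00047). In the Csrp family, Csrp3 fell and Csrp2 had a log2 fold change of 0.54, a call lost with no filter, while Csrp1 was 8.65 and 8.25 against 7.37 and 7.89 RPKM, with a log2 fold change of -0.22 and a limma adjusted p of 0.01. That call was lost with values as deposited (-0.13, adjusted p 0.059) and without Het replicate 1 (-0.19) or Nf1-KO replicate 1 (-0.17). Srf, the transcription factor that binds CArG boxes, was 21.09 and 20.6 RPKM in Het and 17.43 and 17.22 RPKM in Nf1-KO (log2 fold change -0.34, limma adjusted p 0.00022). Fhl2, Fhl3, Csrp1 and Srf were named after their values were seen.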
